A study of Homo sapiens with 2 samples.

Results

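ASAP1 and PTK2 are 2 genes of the minus strand of chromosome 8 whose transcripts carried many binding sites of hnRNPM, a nuclear protein that binds pre-mRNA and regulates its splicing. Their members are the crosslink sites on the minus strand whose middle base lay in chr8:131064353-131455906 for ASAP1 or in chr8:141667999-142012315 for PTK2 (GRCh37, 1-based). These rules gave 116 sites in ASAP1 and 93 in PTK2, together 209 of the 54373 sites of the deposited list. The sites came from iCLIP of HMLE cells, an immortalised cell line from human breast epithelium, labelled wild type (WT) and given DMSO, the solvent used as a vehicle. In iCLIP, ultraviolet light links a protein to the RNA it touches, an antibody (here against hnRNPM) recovers the complex, and reverse transcription tends to stop at the linked base. The 2 libraries were labelled as biological replicates of this 1 group. The list gave a single value per site and no value per library, so no spread between replicates, no depth per library and no test over samples could be given. Both genes were chosen by their number of listed sites in this same list, so site numbers and densities are given as descriptions, and no test was run on any value below.

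PTK2 encodes focal adhesion kinase (FAK), a cytoplasmic tyrosine kinase that is recruited to integrins where a cell grips its matrix and that relays signals from them. ASAP1 encodes a GTPase-activating protein for Arf small GTPases, which binds FAK and the kinase Src and takes part in membrane and actin remodelling at the same adhesions. Focal adhesions anchor mammary epithelial cells to the basement membrane and are rebuilt when cells migrate.

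Both genes are long and mostly intron. In GENCODE release 29, which is on GRCh38, ASAP1 was 392 kb long with 8.28 kb of merged exon, or 2.11% of its length. PTK2 was 344 kb long with 13.7 kb of merged exon, or 3.99%. The longest coding transcript of ASAP1 had 31 exons and a longest intron of 121 kb. That of PTK2 had 32 exons and a longest intron of 75.4 kb. The same strand of this annotation also held the intronic transcript ASAP1-IT2 and the small nuclear RNA gene RNU6-1255P inside ASAP1, and the microRNA gene MIR151A and the gene AC105235.1 inside PTK2, whose RNA could not be told apart from that of the host by strand. Positions were not compared between the builds, so whether a given site lay in an exon or an intron was not analysed here.

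Every site within both spans lay on the strand of the gene. The opposite strand held 0 listed sites within ASAP1 and 0 within PTK2. Per length, ASAP1 had 29.6 sites per 100 kb of span and PTK2 27.01. Each site carried the authors' score, called here the height, which was read as the number of reverse transcription stops at the site. The 116 heights in ASAP1 ran from 6 to 88, with quartiles of 11 and 21 around a median of 15. The 93 heights in PTK2 ran from 7 to 77, with quartiles of 13 and 32 around a median of 18. In the whole list the median was 11, with quartiles of 8 and 17. PTK2 thus had fewer sites than ASAP1 and a larger summed height, 2394 against 2094. These made up 0.280% and 0.245% of the summed height of the list.

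**Figure D1:**
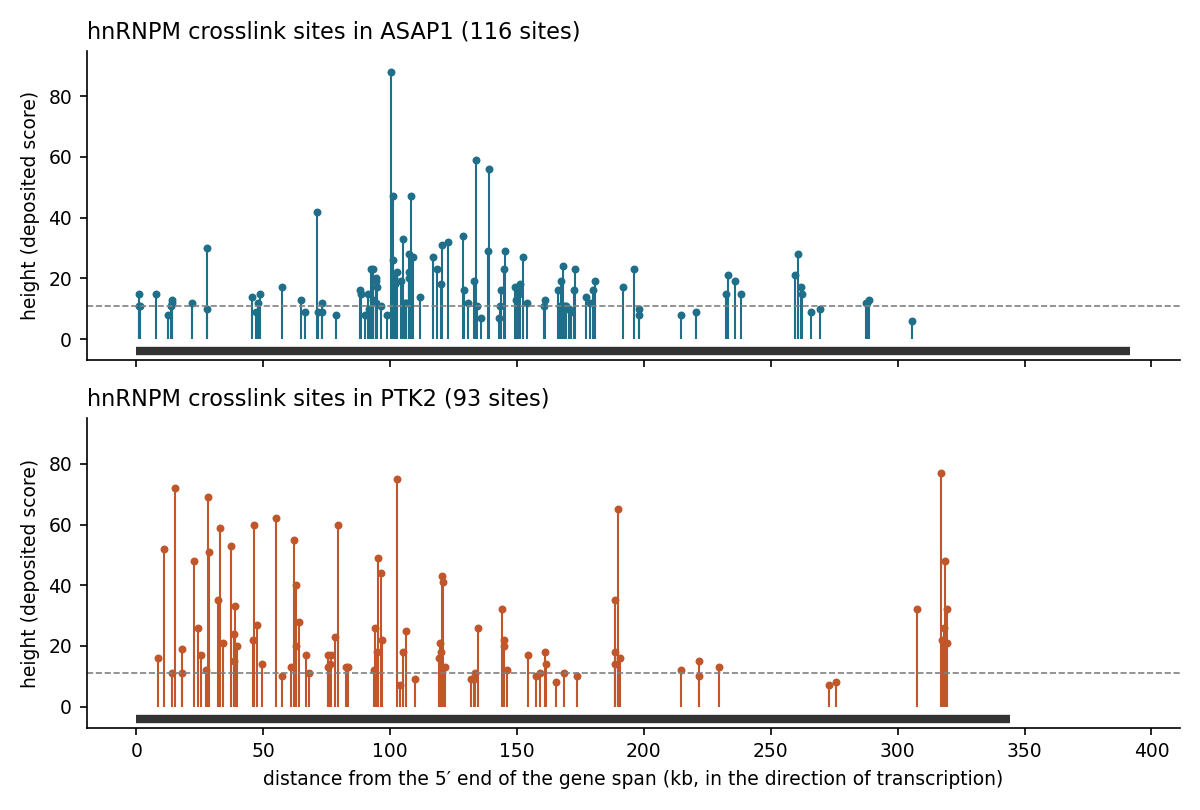
Height of each listed site (vertical axis, the authors' score) against its distance in kb from the 5′ end of the gene span, for ASAP1 (116 sites) and PTK2 (93 sites). The dark bar is the span of the gene and the dashed line marks 11, the median of all 54373 listed heights. Sites of both genes lie mostly in the upstream 50% of the span, in ASAP1 mainly in the second of 4 equal segments. PTK2 has a separate group of tall sites near 317 kb.

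Along ASAP1, sites were gathered in the second of 4 equal segments of the gene. Counted from the 5′ end, the 4 segments held 36, 61, 18 and 1 sites, so that 83.6% lay in the upstream 50% of the span. The first site lay 1.09 kb from the 5′ end and the last 306 kb from it, which left the final 86.0 kb of the gene without a listed site. The fullest window of 10 kb, from 100 to 110 kb, held 15 sites, and the one before it held 12. A stretch of 50 kb from 88.2 kb onward held 42 sites, or 36.2% of the gene's sites on 12.8% of its length. The sites of this stretch had a median height of 19, and the remaining 74 sites had one of 13. In ASAP1 the densest part was thus also the part with the taller sites. Of the 40 windows of 10 kb in ASAP1, 14 held no site.

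Along PTK2, sites began further into the gene and became sparser past the middle of the gene. The 4 segments held 41, 33, 10 and 9 sites, and 79.6% lay in the upstream 50% of the span. The first site lay 8.69 kb from the 5′ end, and the last, at 319 kb, was 24.99 kb short of the 3′ end. No 10-kb window held more than 8 sites (30 to 40 kb), and 10 of 35 windows held none. The densest 50 kb, from 14.0 kb onward, held 28 sites, or 30.1% of the gene's sites on 14.5% of its length. Their median height was 25, against 17 for the other 65 sites. The median height by segment was 21, 18, 14.5 and 26, and 6 of the 9 sites behind the last value belonged to 1 tag cluster.

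Tall sites were more numerous in PTK2. A height of at least 50 was reached by 13 sites (14.0%) in PTK2 and by 3 sites (2.59%) in ASAP1, and by 2.60% of the whole list. The 3 such sites of ASAP1 all fell in its second segment. The tallest, at chr8:131355698-131355718, had a height of 88 and lay 100.2 kb from the 5′ end. It was followed by heights of 59 at 134 kb and 56 at 139 kb. The other 7 of the 10 tallest sites of ASAP1 had heights of 31 to 47 and lay between 71.4 and 129 kb.

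In PTK2 most of the tall sites lay near the 5′ end. The first segment held 10 of the 13, at heights of 51 to 72 and between 10.9 and 79.5 kb from the 5′ end. Each remaining segment held 1. The tallest site of the gene, at chr8:141695286-141695306, had a height of 77 and lay far from the rest, 317 kb from the 5′ end. The second, at chr8:141909772-141909792, had a height of 75 at 103 kb, and the third, at chr8:141996916-141996936, had a height of 72 at 15.4 kb. A site of height 65 stood at 190 kb. From the first to the last site of height 50 or more, PTK2 spanned 306 kb, a range that rests on the site at 317 kb, and ASAP1 38.6 kb.

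**Figure D2:**
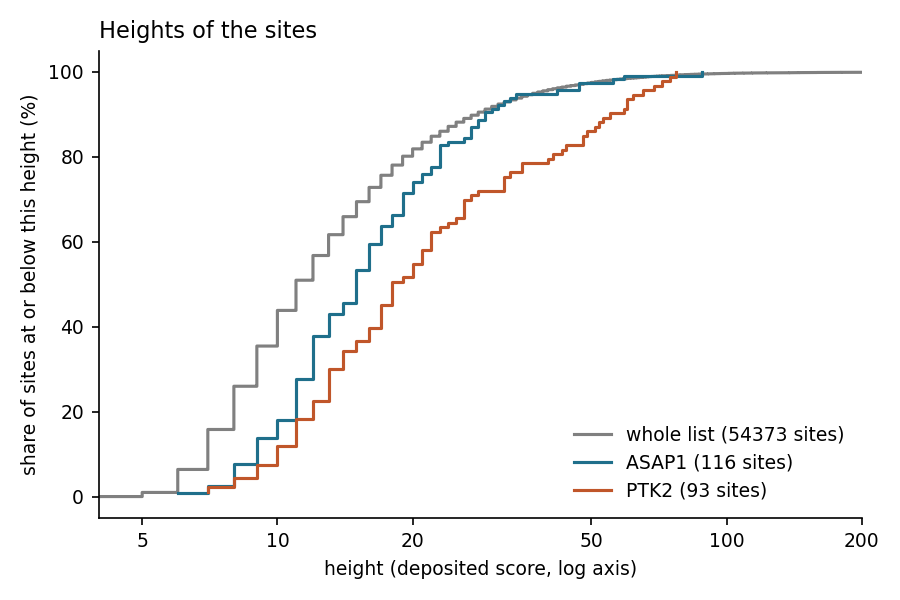
Share of sites (vertical axis, %) at or below each height (horizontal axis, log scale) for ASAP1, PTK2 and the whole list of 54373 sites. The line of PTK2 lies lowest and furthest right, with a median of 18, against 15 for ASAP1 and 11 for the list; near a height of 50 the lines of ASAP1 and the list run together.

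Both genes held a larger share of sites at or above the upper quartile of the list. Of the whole list, 27.2% of sites had a height of 17 or more, which is that quartile. In ASAP1 47 sites did (40.5%, exact binomial 95% interval 31.5 to 50.03) and in PTK2 56 did (60.2%, 49.5 to 70.2). A deposited P of 1e-100, the smallest in the file, was carried by 16.2% of the list, by 26 sites of ASAP1 (22.4%, 15.2 to 31.1) and by 29 sites of PTK2 (31.2%, 22.0 to 41.6). For ASAP1 this interval includes the share of the list. A stretch was a run of consecutive sites of 1 strand, no more than 50 kb apart. Over the 128 stretches with at least 50 sites, the share at this P had a median of 21.9% and quartiles of 17.9% and 27.9%. By this share the stretch holding ASAP1 ranked 60 and the one holding PTK2, at 33.6%, ranked 15. In the chromosome 8 stretch with the most sites, 84.0% of sites had a height of 17 or more. Both shares of that stretch were above those of either gene. A P of 1e-100 did not follow height from site to site. In ASAP1 a site of height 14 carried it, whereas a site of height 42 carried a deposited P of 9.83e-14. These intervals cover the scatter of sites only, and sites of 1 transcript are not replicates. The file also gave a value marked PH0, which it does not define and which was read here as the expected height for the tag cluster of each site. A tag cluster was read as a region of overlapping reads on 1 strand. The median expected height was 0.715 in ASAP1, 1.17 in PTK2 and 0.51 in the list. Height divided by expected height had a median of 22.4 in ASAP1, 20.4 in PTK2 and 23.7 in the list. The greater heights of both genes thus came with greater expected heights, and the median ratio of neither gene lay above that of the list. The ratio does not compare sets of unlike expected height evenly. An ASAP1 site with an expected height of 0.22 had a ratio of 27.3 and a deposited P of 7.85e-04. A PTK2 site with an expected height of 3.04 had a ratio of 5.59 and a deposited P of 4.75e-04. A similar P thus went with a far lower ratio where the expected height was greater. The files used here hold no RNA levels, so the part of transcript abundance in these heights was not tested.

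By this ratio 1 site of ASAP1 stood apart among the sites of both genes. The highest ratio was 171 in the whole list and 91.2 in the chromosome 8 stretch with the most sites. The site at chr8:131384539-131384559, 71.4 kb from the 5′ end, had a height of 42 in a tag cluster with an expected height of 0.41, a ratio of 102. Its tag cluster held 1 more site, 26 nt downstream and of height 9, which was the closest pair of the gene. The next ratios were 66.3 for a PTK2 site of height 53 at 37.4 kb and 65.6 for the ASAP1 site of height 59. The tallest sites of ASAP1 and PTK2 had ratios of 45.1 and 43.3. These sites were picked out after their ratios were seen.

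In ASAP1 78 of 116 sites (67.2%) shared their tag cluster with another listed site, and in PTK2 56 of 93 (60.2%), against 43.4% of the list. Over the 128 stretches of the list with at least 50 sites (consecutive sites of 1 strand, no more than 50 kb apart), this share had a median of 56.1% and quartiles of 46.6% and 64.2%. In this ranking the stretch holding ASAP1 was 28 and the one holding PTK2, at 59.3%, was 48. ASAP1 had 63 tag clusters with a site, of which 38 held 1, 16 held 2, 3 held 3 and 6 held at least 4. PTK2 had 52, of which 37 held 1, 5 held 2, 3 held 3 and 7 held at least 4. Clusters of 4 or more held 37 sites in each gene, 31.9% of those in ASAP1 and 39.8% of those in PTK2, against 9.59% of the list. In the chromosome 8 stretch with the most sites this share was 42.4%, above that of either gene. Sites alone in their cluster had a median height of 12.5 in ASAP1 and 13 in PTK2. Sites that shared a cluster had medians of 16 and 21. In the list the corresponding values were 10 and 14.

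The 6 fullest clusters of ASAP1 all lay between 92.5 and 169 kb from the 5′ end. The fullest held 9 sites over 4487 nt, from 104 to 109 kb. In the order of transcription its heights were 19, 33, 12, 12, 22, 20, 28, 47 and 27, so the tallest site was the eighth. The neighbouring cluster, 5 sites over 1700 nt, opened with the tallest site of the gene and then fell steadily, with heights of 88, 47, 26, 20 and 18. A cluster of 5 sites near 149 kb was even, with heights of 13 to 18. One of 7 sites near 166 kb had heights of 11 to 24, and one of 7 near 92.5 kb had heights of 12 to 23. The last, 4 sites near 117 kb, had heights of 18 to 31.

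The 7 fullest clusters of PTK2 lay between 38.6 and 319 kb, a range that rests on the cluster at 317 kb. None lay between 191 and 317 kb. The one nearest the 3′ end held 6 sites over 2304 nt, with heights of 77, 22, 26, 48, 32 and 21 in the order of transcription. Its lowest site thus stood above the median of the gene, 18. A cluster at 188 kb held 5 sites with heights of 14, 35, 18, 65 and 16. The fullest, 7 sites over 2021 nt at 119 kb, had heights of 13 to 43. The cluster at 75.6 kb had 5 sites of 13 to 23 and ended, in the direction of transcription, on a site of height 60. The remaining 3 clusters, near 38.6, 62.3 and 93.5 kb, had tallest sites of 33, 55 and 49.

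**Figure D3:**
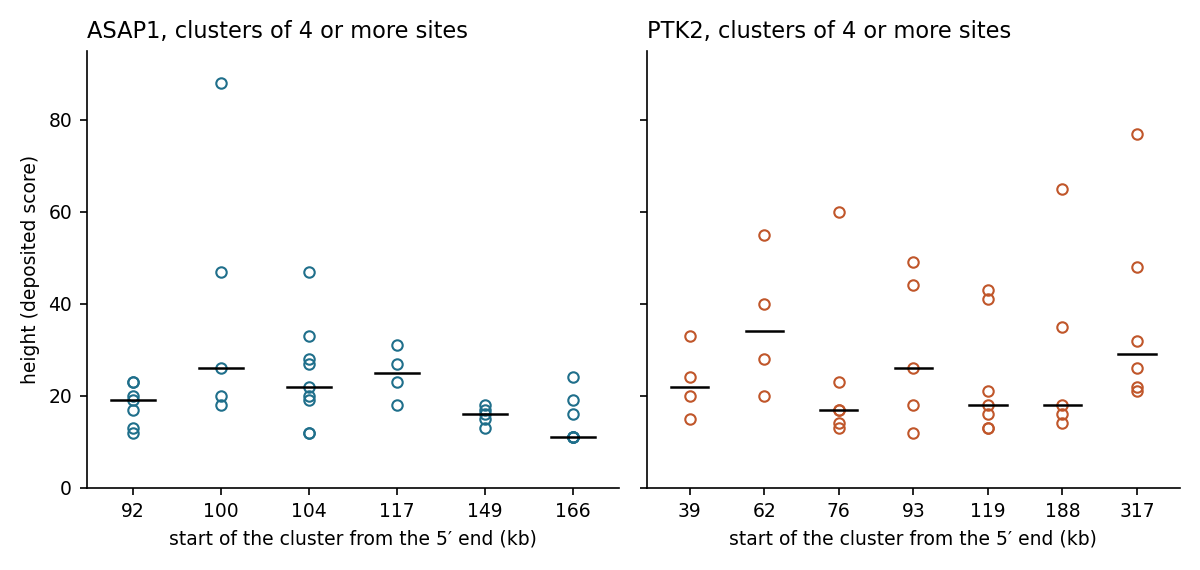
Heights of the single sites (circles, the authors' score) in every tag cluster with at least 4 listed sites, placed in order by the distance of the cluster from the 5′ end (kb, not to scale), with the median of each cluster as a bar. Several clusters have 1 or 2 sites far above their median, up to 88 in ASAP1 and 77 in PTK2. The ASAP1 clusters near 92.5, 117 and 149 kb do not, and the one at 149 kb is the most even.

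Within a gene, neighbouring sites were usually close and a few gaps were wide. The median gap was 1043 nt in ASAP1 (quartiles 410.5 and 2744) and 1235 nt in PTK2 (571 and 3183.5). The smallest gaps were 26 and 32 nt, and 55 of the gaps in ASAP1 (47.8%) and 40 of those in PTK2 (43.5%) were at most 1 kb. Among neighbours 26 to 59 nt apart, the upstream site was the taller one in 7 of 10 pairs in ASAP1 and in 4 of 7 in PTK2, against 65.5% of the 2900 pairs of unequal height in the list. So few pairs cannot show whether the genes differ from the list in this.

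The 3 widest gaps of PTK2 were longer than any gap of ASAP1. ASAP1 had 7 gaps over 10 kb, the 5 widest being 20.95, 18.3, 17.7, 16.9 and 16.3 kb. Of these 5, only the gap of 17.7 kb, from 27.8 to 45.4 kb, lay in the upstream 50% of the span. PTK2 had 6 gaps over 10 kb, the 5 widest being 43.2, 31.7, 24.0, 14.8 and 10.5 kb. The widest ran from 230 to 273 kb. It was followed by 2 sites of heights 7 and 8, then by the gap of 31.7 kb, and then by a site of height 32 at 308 kb, 9.48 kb ahead of the cluster with the tallest site. Gaps over 10 kb took up 113 kb of ASAP1 and 134 kb of PTK2. These gaps lie between listed sites and leave out the ends of each span. Past the last site, 86.0 kb of ASAP1 and 24.99 kb of PTK2 held no listed site. That end of ASAP1 was longer than any gap of PTK2.

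Wide gaps without listed sites were not free of numbered tag clusters. The name of each site holds a running number and the number of its tag cluster. Both numbers rose with position on each strand of every chromosome, with 0 exceptions in the list. A number that was skipped was therefore read as a site, or a tag cluster, that was numbered but has no site in the list; the file does not define the numbers. In the widest gap of PTK2, of 43.2 kb, 277 tag cluster numbers were skipped but only 9 site numbers. The gap of 31.7 kb skipped 189 cluster numbers and 9 site numbers. The widest gap of ASAP1 skipped 115 cluster numbers and 7 site numbers. Over all gaps above 10 kb, cluster numbers were skipped at 6.19 per kb in ASAP1 and 5.90 per kb in PTK2. In gaps of at most 10 kb these rates were lower, 2.95 in ASAP1, 3.57 in PTK2 and 3.78 over the list. Over the 7393 gaps of 10 to 50 kb in the list the rate was 5.48, and single gaps had quartiles of 4.98 and 6.23. Between these quartiles lay 4 of the 7 wide gaps of ASAP1 and 3 of the 6 of PTK2. Single wide gaps ranged from 5.38 to 7.28 per kb in ASAP1 and from 4.33 to 6.59 in PTK2. Site numbers were skipped at 0.266 per kb there in ASAP1 and 0.372 in PTK2, and at 1.58 and 2.15 per kb in the gaps of at most 10 kb. Over gaps of 10 to 50 kb in the list the rate was 0.193, below that of either gene. Single gaps of this class had quartiles of 0.0704 and 0.303. Single wide gaps of PTK2 ranged from 0 to 0.984 per kb, and so lay on both sides of these quartiles. In gaps of at most 10 kb the rate over the list was 1.14.

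**Figure D4:**
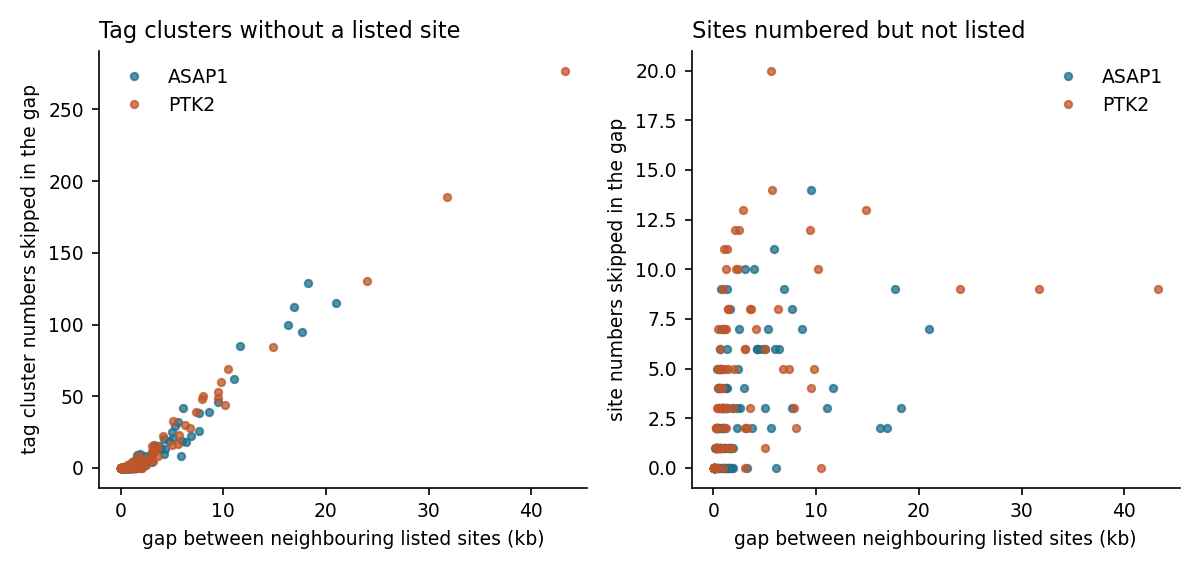
Each point is 1 gap between neighbouring listed sites of ASAP1 or PTK2, by its length (kb) and the number of tag cluster numbers (left) or site numbers (right) skipped in it. Skipped cluster numbers increase with gap length up to 277 in the gap of 43.2 kb, whereas skipped site numbers stay at 20 or fewer at any length.

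Fewer cluster numbers per kb were skipped beyond the 5′ ends. Upstream of ASAP1 the next listed site of the strand was 2795 kb from the first site of the gene, and 896 cluster numbers were skipped on the way, or 0.321 per kb. Upstream of PTK2 the next was 247 kb away, with 284 cluster numbers skipped, or 1.15 per kb. Across the 3′ end of ASAP1, in contrast, 623 cluster numbers were skipped over the 125 kb from the last site of the gene to the next listed site, or 4.98 per kb, with 7 site numbers. That interval joins the final 86.0 kb of ASAP1, where no site was listed, to 39.1 kb beyond the 3′ end of the gene, and how the clusters divide between the 2 parts cannot be read from the list. In the list, single gaps over 50 kb skipped a median of 1.08 cluster numbers per kb, with quartiles of 0.520 and 2.68. The gap upstream of PTK2 was near this median, the one upstream of ASAP1 below the lower quartile and the one across the 3′ end of ASAP1 above the upper quartile. Across the 3′ end of PTK2 184 cluster numbers were skipped over 48.2 kb, or 3.82 per kb, below the lower quartile of 4.98 for gaps of 10 to 50 kb.

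The genes differed in how many numbered sites were listed. From its first to its last site ASAP1 spanned 448 site numbers, of which 116 (25.9%) were in the list. PTK2 spanned 522, of which 93 (17.8%) were listed. The share was 24.2% in the whole list and 21.8% on the minus strand of chromosome 8. PTK2 thus had more numbered sites than ASAP1, 1.68 against 1.47 per kb, from first to last site, and fewer listed ones.

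Set among the other dense parts of the list, both genes ranked high in number, which is the value by which they were chosen. Consecutive sites were joined into a stretch as long as they kept to the same strand and lay no more than 50 kb apart, which gave 6345 stretches, of which 128 held at least 50 sites. The stretch holding ASAP1 consisted of its 116 sites alone and ranked 4 by number. The stretch holding PTK2 had 113 sites, because 20 sites downstream of its 3′ end joined it across a gap of 48.2 kb, and it ranked 6. With its own 93 sites PTK2 would have stood behind 19 other stretches. By median height the PTK2 stretch, at 18, ranked 13 of 128 (rank shared with others) and the ASAP1 stretch, at 15, ranked 45, against a median of 14 over the 128. By sites per 100 kb, from first to last site, the ASAP1 stretch, with 38.1, ranked 27. The PTK2 stretch, with 27.04, ranked 81 and lay below the median of 29.7. By the most sites in 50 kb ASAP1, with 42, ranked 9 and PTK2, with 28, ranked 65. By the share of site numbers listed ASAP1 ranked 55 and PTK2, at 18.5% with the added sites, ranked 120. The order of the genes thus depended on the measure. The stretch with the most sites on chromosome 8 (144 sites, minus strand, chr8:118827407-119121448 between its outer site middles) had a median height of 24.5 and listed 16.8% of its numbers.

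**Figure D5:**
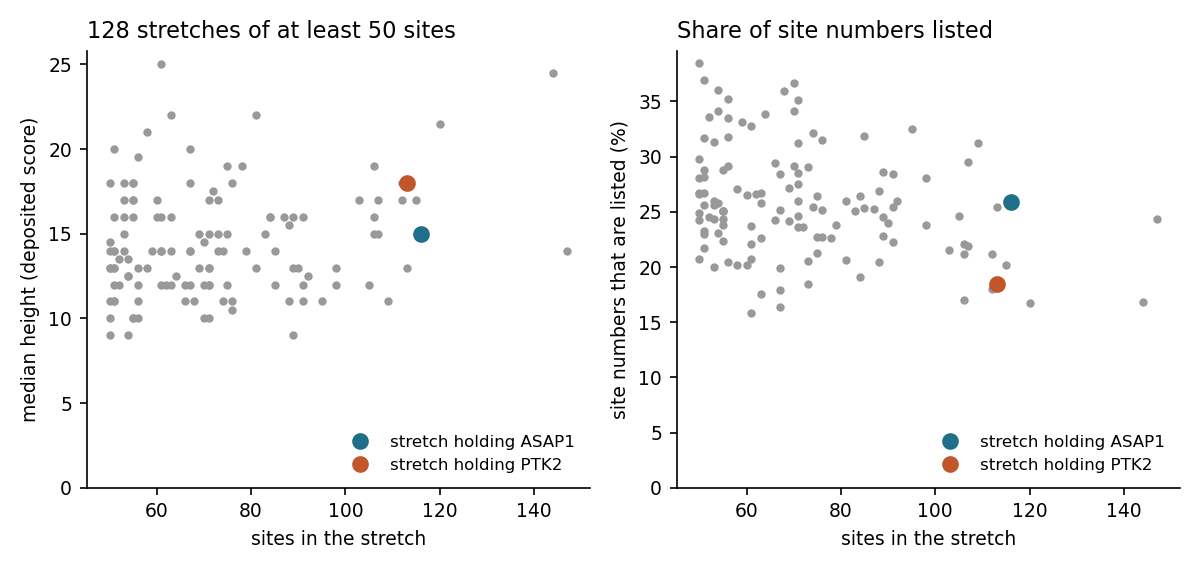
The 128 stretches with at least 50 sites (grey), by number of sites and median height (left) or share of site numbers listed (right), with the stretches holding ASAP1 and PTK2 coloured. The PTK2 stretch (113 sites) has a median height of 18 and 18.5% of its numbers listed, the ASAP1 stretch (116 sites) 15 and 25.9%.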

How the data were processed

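The data were 1 list of hnRNPM crosslink sites for 2 iCLIP libraries of HMLE cells. The score that the authors deposited for each site, a whole number equal to the value marked PH in its name, was used as the height. Per the submitters' processing notes, coordinates are on GRCh37. The aligner, site caller, filters and handling of duplicates are not given in the sources used here. No source says whether the libraries were pooled, and the list was treated as if they were. Depth is unknown. Site and cluster numbers, PH0 and P were taken from the deposited names, which do not define them. Reading PH0 as an expected height is an assumption. All sites were 21 nt wide, and positions are 1-based. Sites were assigned by strand and middle base. For each gene the text names the 10 tallest sites, the tag clusters of at least 4 sites, the 5 widest gaps, the fullest 10-kb windows and the outer sites. The genes, lists and measures were chosen with earlier results of these data known. A planned count over a list of other focal adhesion genes was not made, because the annotation at hand was on GRCh38. The functions were tested on simulated data, 20 sets with planted sites, and returned the planted values. Alternatives are given in the closing section. The software was Python 3.11.15 with scipy 1.17.1, numpy 2.4.6, matplotlib 3.10.9 and pandas 2.3.3.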

Additional observations from a re-analysis of the deposited data

How the results depend on the processing

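Sites limited to those above the list's median height or with a deposited P of at most 1e-6, sites within 50 nt merged, spans widened by 10 kb, whole intervals inside the span, whole overlapping stretches and both strands gave 62 further values of site number, median height, median gap, cluster share and 5′ share. Of these, 60 stayed within 1.5 times the reported count or within the 95% interval over sites. Many of them could not move. Widened spans, whole intervals and both strands left the sites of both genes unchanged, as did the whole stretch for ASAP1. Only the height and P limits, the merging and the PTK2 stretch changed the set of sites. The median height in ASAP1 was 17.5 among sites above the list's median, by the construction of that alternative. In PTK2 the share of sites upstream of the middle of the span was 65.5% over the whole stretch, which adds 20 sites downstream of the gene. Chosen after seeing the data, stretch gaps of at most 20 and 100 kb gave ranks of 3 and 5 for ASAP1 and of 15 and 8 for PTK2. No paired analysis was possible because there was 1 group and each site had only 1 value, and for the same reason no replicate could be left out. Depth is unknown here, so how many low sites were missed cannot be stated.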

Other observations

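Both genes had no listed site on either strand within 100 kb upstream of the 5′ end. Upstream of ASAP1 the nearest was a plus-strand site of height 17 at 1463 kb, and upstream of PTK2 a plus-strand site of height 8 at 137 kb. Downstream of the 3′ ends, within 100 kb, the minus strand held 9 sites after ASAP1, the nearest at 39.1 kb with a height of 7, and 20 after PTK2, the nearest at 23.2 kb with a height of 21. No plus-strand site lay within 100 kb downstream of ASAP1 or PTK2. These sites lie outside both spans. They entered no value of the genes except those given for stretches and for the gaps beyond the outermost sites of each gene.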
